A study of Homo sapiens with 6 samples.

Results

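Gene expression in the human osteosarcoma line U2OS was compared, by total RNA sequencing, between 2 libraries of cells returned to isotonic medium after hypertonic treatment and 2 libraries with a baseline-like profile. These are 4 of the 6 libraries of the series, and all cells carried a stable GFP-DCP1A transgene kept under G418 selection, the rescue cells and the others alike. DCP1A is a cofactor of mRNA decapping that gathers in P-bodies. The labels do not give the promoter of the transgene or say whether the line is 1 clone. Per the labels, the isotonic group was kept in medium with 150 mM sodium, mock-supplemented with 1x PBS. The hypertonic group was treated for 4 h in medium brought to 300 mM sodium with 10x PBS. The rescue group received the hypertonic medium for 4 h and then isotonic medium for 4 h, so its cells had 4 h more than the hypertonic group and 1 further medium. The time in isotonic medium of the isotonic group is not in the labels, so what rescue did cannot be told apart from what a difference in time or handling did.

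The baseline-like pair consists of the library labelled isotonic 1 and the library labelled hypertonic 2, and the second of these conflicts with its label. The pair was chosen from measured values, namely low counts of SLC38A2, NFAT5 and FOS and a close match of the whole profiles. SLC38A2, an amino acid transporter that rises under hypertonic stress, stood at 346 and 351 CPM in isotonic 1 and hypertonic 2, against 3074 and 3050 CPM in isotonic 2 and hypertonic 1, where CPM is the read count scaled for library size with TMM factors. NFAT5, which encodes the main osmotic stress transcription factor, stood at 160 and 168 CPM in the pair and at 515 and 486 CPM in the other 2 libraries. FOS, an immediate early gene, stood at 3.03 and 3.42 CPM in the pair and at 38.5 and 38.2 CPM in the others. Across the 15435 genes averaging 1 CPM or more over the 6 libraries, the log2 ratio of hypertonic 2 over isotonic 1 had an SD of 0.131, and 13 genes differed by 2-fold. The SD was 0.922 between hypertonic 2 and hypertonic 1, with 3076 such genes, and 0.121 between the rescue libraries, with 4. Isotonic 2 and hypertonic 1 are called the response-like pair below. Because picked libraries are not a labelled group, rescue over the baseline-like pair is described without a test. Only the comparison of rescue with isotonic as labelled was tested, and "rose" and "fell" are used for its calls alone.

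Cells in hypertonic medium lose water and shrink, and they adapt through NFAT5, which drives the uptake and synthesis of organic osmolytes such as inositol, taurine and sorbitol. Hypertonic shrinkage also activates stress kinases and their immediate early genes and slows translation and transcription. On return to isotonic medium the cells swell, the osmolytes are released, and the expression programme can turn back.

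A gene was called higher or lower where the means of rescue and of the baseline-like pair differed by at least 2-fold, after 0.1 CPM was added to each, and the 2 rescue libraries did not overlap the 2 others. Log2 ratios are given with this added 0.1 CPM, and folds as the plain ratio of the mean CPM, which is larger for genes near 0 in the pair. By this rule 2466 of 15435 genes were higher in rescue, or 16.0%, and 1267 were lower, or 8.21%. STMN2 and SERPINB5 had the largest ratios upward among genes averaging 5 CPM or more over the 4 libraries, KYNU, GDF15 and TXNIP were also far above the pair, and HSPA8 lay farthest below it. The median log2 ratio of all genes was -0.10 with TMM scaling, 0.09 with upper quartile scaling and 0.13 with scaling by library totals. The split moved with it, from 66.1% higher among the called genes with TMM to 80.9% with upper quartile scaling (2964 higher, 698 lower) and 83.5% with totals (3117 higher, 618 lower).

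**Figure D1:**
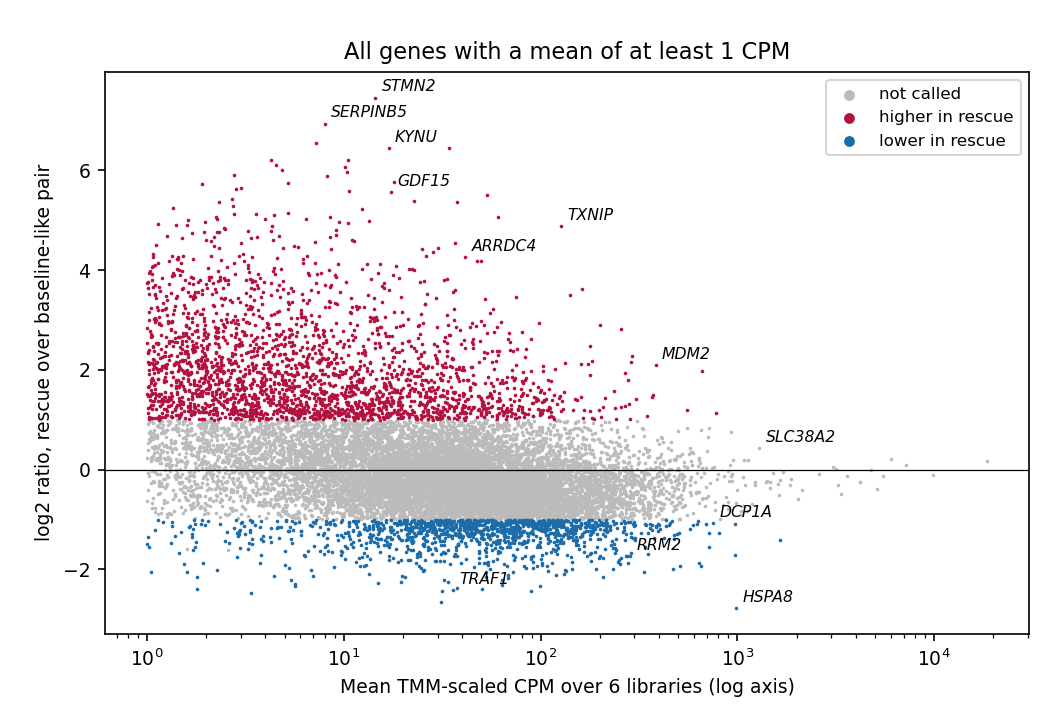
Each point is a gene averaging 1 CPM or more. The x axis gives its mean TMM-scaled CPM over the 6 libraries on a log axis, and the y axis the log2 ratio of the mean of the 2 rescue libraries over the mean of the baseline-like pair, with red for genes called higher (2466) and blue for genes called lower (1267). Ratios reached 7.46 upward (STMN2) and -2.77 downward (HSPA8), and genes called higher crowd at low levels.

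Shares of called genes differed between level bins. Among 2335 genes with a mean of 1 to 5 CPM over all libraries, 48% were higher and 3.3% lower, and among 2437 genes at 100 CPM and over, 3.16% were higher and 14% lower. These means include the rescue libraries, so a gene near 0 elsewhere enters the lowest bin through its rescue level, and the share there is in part set by the binning. Binned by isotonic 2 and hypertonic 1 alone, which do not enter the ratio, 41.1% of 2271 genes at 1 to 5 CPM were higher and 3.08% lower. At 5 to 20 CPM 16.1% of 3847 genes were higher and 4.83% lower. At 100 CPM and over 2.9% of 2823 genes were higher and 14.1% lower. The high share at low levels thus largely remained in these bins, although the floor of 1 CPM still counts the rescue libraries. Fewer gene rows had no count at all in the rescue libraries, 690 and 699, than in isotonic 1 and hypertonic 2, 1627 and 1653. The 386 olfactory receptor genes, which bone-derived cells are not known to use, summed to 101 and 108 CPM after rescue and to 62 and 59.3 CPM in the pair. The part of this broad low-level signal in the ratios of weakly measured genes was not tested. Genes with a span of 80 kb and over were called higher in 22.3% of cases and those of 5 to 20 kb in 12.1%.

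**Figure D2:**
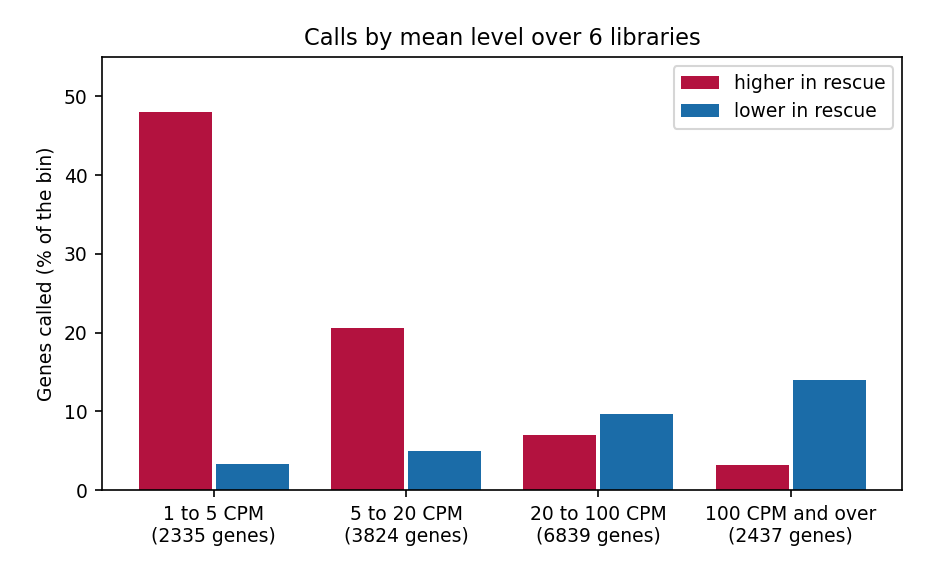
Share of genes called higher (red) or lower (blue) in rescue than in the baseline-like pair, in percent of the genes of each bin of mean level over the 6 libraries, rescue included. The share called higher falls from 48% in the lowest bin to 3.16% in the highest, while the share called lower goes from 3.3% to 14%.

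The labelled osteosarcoma origin was checked against bone lineage genes. COL1A1, the main collagen chain of bone, stood between 716 and 1193 CPM over the 6 libraries, SPARC between 611 and 807 CPM and RUNX2, the osteoblast factor, between 19.4 and 78.9 CPM, whereas COL1A2, SP7 and IBSP stayed under 1 CPM in all. No bone gene of 10 passed the labelled test, in which 9.61% of all genes rose and 13.5% fell. The 7 leukocyte markers summed to 22.6 and 21.1 CPM after rescue and to 9.68 and 10.2 CPM in the pair. In the response-like pair they summed to 15.5 and 13.5 CPM. CD3E had 0 counts in the 4 libraries outside rescue and 0.107 and 0.122 CPM after rescue. The 4 endothelial markers summed to 28.2 and 27.2 CPM after rescue and to 8.37 and 8.1 CPM in the pair. Their sums in the response-like pair were higher than after rescue, at 32.7 and 31.8 CPM. The 6 epithelial markers summed to 412 and 388 CPM against 359 and 357 CPM, and to 618 and 627 CPM in the response-like pair. The part of these markers in the other results was not tested.

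The test of rescue against isotonic as labelled used all 6 libraries in one edgeR quasi-likelihood model. It called 1749 of 18208 genes as having risen, or 9.61%, and 2453 as having fallen, or 13.5%, at a Benjamini-Hochberg adjusted p of 0.05. This test shares both rescue libraries and isotonic 1 with the description above and is not independent of it. It sets rescue against isotonic 1 and isotonic 2, so a gene that differs between these 2 can miss its threshold. Leaving out any 1 of isotonic 1, isotonic 2, rescue 1 or rescue 2 gave 0 calls in both directions in edgeR; the numbers of genes with unadjusted p below 0.05 were then 6572, 5852, 3770 and 3652, and no other tool was run on these subsets. With isotonic 2 and hypertonic 2 both left out, so that only the rescue libraries gave the spread and the lone samples were assumed to vary like them, 7476 genes rose and 7115 fell. Nothing in the labels says that the 2 libraries of a group are separate cultures, so the p-values reflect a spread between libraries that could be purely technical.

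TXNIP, which inhibits thioredoxin and glucose uptake, and its relatives ARRDC3 and ARRDC4 of the alpha-arrestin family were far higher after rescue. The transcription factor MondoA (MLXIP), with its partner MLX, is known to drive TXNIP and ARRDC4 from carbohydrate response elements when sugar phosphates build up. The promoters of TXNIP, ARRDC4 and ARRDC3 were considered for display. Only that of TXNIP held a match to such an element within 250 bases before the start, and it is shown for that reason. The stretch below ends 22 bases before the RefSeq start (GRCh38.p14, chr1:145996601-145996829, minus strand), with the match to the carbohydrate response element, CACGNG repeated after a short spacer, in capitals.
TXNIP: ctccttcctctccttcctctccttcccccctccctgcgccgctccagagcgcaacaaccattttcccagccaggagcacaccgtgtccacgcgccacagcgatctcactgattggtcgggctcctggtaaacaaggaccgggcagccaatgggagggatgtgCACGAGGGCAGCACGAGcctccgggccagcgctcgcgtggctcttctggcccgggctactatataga
On either strand this pattern was found within 250 bases before the start in 1 of the 8 genes of the MondoA list and in 16 of 14896 promoters, or 0.107%. The pattern was chosen after the sequence was read, and a match is not evidence of binding.

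TXNIP, on chromosome 1 from 145992435 to 145996600 (GRCh38), stood at 371 and 353 CPM in the rescue libraries, at 11.9 and 12.6 CPM in isotonic 1 and hypertonic 2, and at 5.45 and 5.58 CPM in isotonic 2 and hypertonic 1. Rescue was 29.6-fold above the baseline-like pair, with all 4 library ratios between 4.8 and 4.95 on the log2 scale, and the response-like pair lay below the baseline. Against isotonic as labelled TXNIP rose by 5.39 (log2, SE 0.649; edgeR adjusted p = 0.0123). ARRDC4 stood at 115 and 112 CPM after rescue and at 5.72 and 6.02 CPM in the pair, 19.4-fold higher. ARRDC3 stood at 375 and 365 CPM after rescue and at 31.6 and 33.6 CPM in the pair, 11.4-fold higher. Of the 5 arrestins 4 rose in the labelled test, beside 9.61% of all genes. They were TXNIP, ARRDC3, ARRDC4 and ARRDC2, the last at 24.4 and 22.5 CPM against 12.8 and 12.5 CPM. ARRDC1 did not pass. The gene of MondoA itself went the other way: MLXIP stood at 37.4 and 37.2 CPM after rescue and at 86 and 87.9 CPM in the pair and fell in the labelled test by 1.27 (log2, SE 0.112; edgeR adjusted p = 0.00891).

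**Figure D3:**
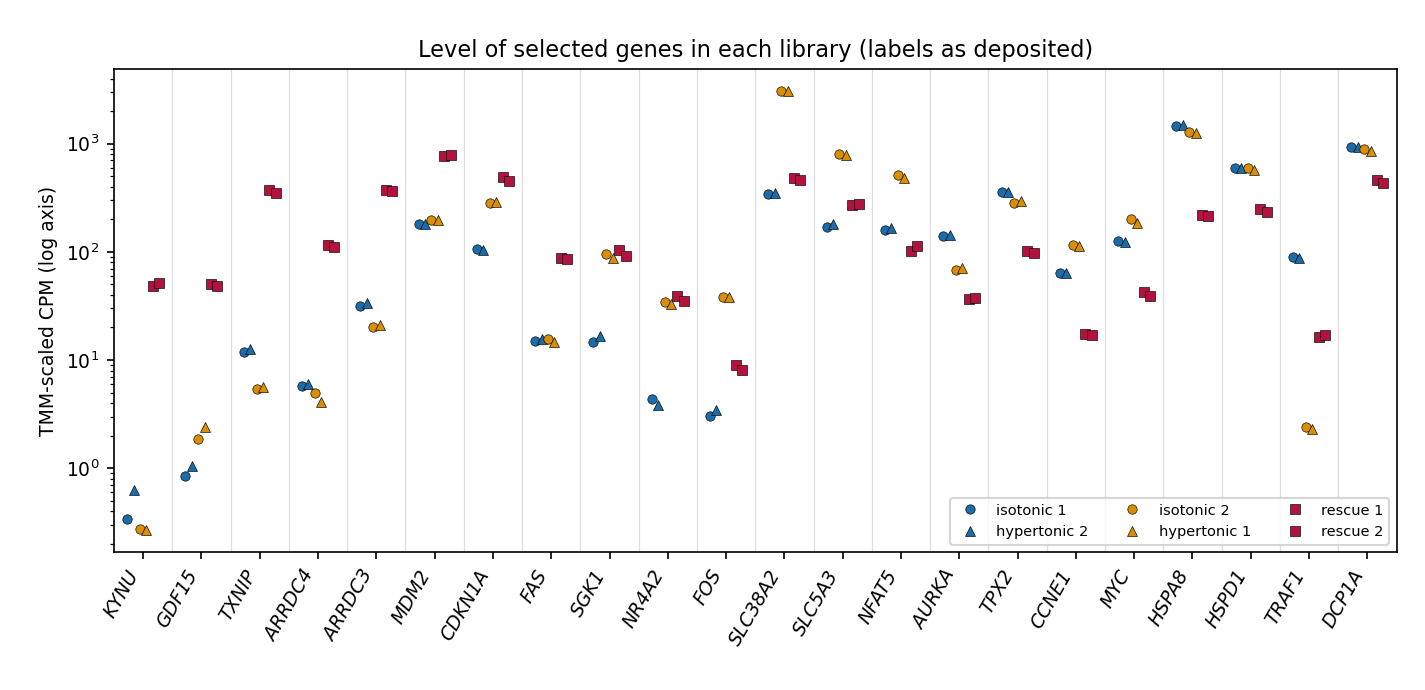
TMM-scaled CPM (log axis) of 22 genes in each of the 6 libraries, with circles for isotonic, triangles for hypertonic and squares for rescue; blue marks the baseline-like pair, orange the response-like pair and red the rescue libraries. The 2 blue points lie close together although their labels differ, except for KYNU, where they stand at 0.337 and 0.622 CPM. TXNIP, ARRDC4, MDM2 and FAS are above both other pairs in rescue, while TPX2, CCNE1, MYC and HSPA8 are below both.

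Targets of p53, the DNA damage and stress response factor, were mostly higher. Of 26 members at 1 CPM or more, 20 were called higher, 76.9% beside 16.0% of all genes, and 0 lower, with a median log2 ratio of 1.44. In the labelled test 11 of 28 rose and 0 fell, beside 9.61% and 13.5% of all genes. Earlier results of these data had already shown this list, so the count is no independent support. Among genes of cell cycle arrest, BTG2, an antiproliferative gene, stood at 173 and 165 CPM after rescue and at 25.6 and 25 CPM in the pair (6.69-fold). SESN1, a stress-induced inhibitor of growth signalling, stood at 98.6 and 101 CPM against 15.9 and 16.6 CPM (6.17-fold). CDKN1A, the p21 inhibitor of cyclin-dependent kinases, stood at 491 and 455 CPM after rescue, at 107 and 104 CPM in the baseline-like pair and at 284 and 286 CPM in the response-like pair, so its rescue level was the highest of the 3. It did not pass in the labelled test (edgeR adjusted p = 0.245).

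Feedback genes of p53 were higher too. MDM2, the ubiquitin ligase that degrades p53, stood at 763 and 784 CPM after rescue and at 181 and 183 CPM in the pair, 4.25-fold higher, and at 195 and 197 CPM in the response-like pair. It rose by 2.04 in the labelled test (log2, SE 0.103; edgeR adjusted p = 0.00834); its span overlaps another gene row. PPM1D, the phosphatase that switches p53 signalling off, stood at 376 and 382 CPM after rescue, at 96.8 and 101 CPM in the baseline-like pair and at 326 and 327 CPM in the response-like pair. FAS, a death receptor whose span overlaps ACTA2, stood at 88.5 and 86.7 CPM against 14.8 and 15.5 CPM. GDF15, a secreted stress cytokine on chromosome 19 from 18374731 to 18389176, stood at 50.5 and 48.1 CPM after rescue, at 0.848 and 1.05 CPM in the baseline-like pair and at 1.87 and 2.4 CPM in the response-like pair, 52-fold above the baseline. Of the 6 members not called, CCNG1, the gene of cyclin G1, was the one with a ratio below 0, at 53.7 and 53.2 CPM against 73.5 and 73 CPM. BAX, an effector of apoptosis, stood at 46.7 and 43.2 CPM against 43.9 and 42.4 CPM.

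Genes of G2 and mitosis had the largest share of members lower among the pathway lists. All 28 had a log2 ratio below 0, and 23 were called lower, 82.1% beside 8.21% of all genes, with a median of -1.35. In the labelled test 20 of 28 fell, beside 13.5% of all genes, and 0 rose. A smaller share of dividing cells and less RNA per cell cannot be told apart in bulk RNA. AURKA, a mitotic kinase, stood at 36.9 and 37.5 CPM after rescue, at 140 and 142 CPM in the pair and at 67.3 and 70.7 CPM in the response-like pair. BUB1B, of the spindle checkpoint, stood at 23.9 and 24.5 CPM after rescue and at 110 and 109 CPM in the pair, a 4.52-fold lower level; its row overlaps a readthrough row. DLGAP5, a spindle protein, stood at 61.8 and 62 CPM against 226 and 224 CPM, and TPX2, which nucleates spindle microtubules, at 101 and 97.3 CPM against 356 and 355 CPM. CDK1, the mitotic kinase subunit, was under the fold threshold, at 108 and 105 CPM after rescue, 160 and 167 CPM in the pair and 83.6 and 85.5 CPM in the response-like pair.

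Promoters of cell cycle genes often hold the cell cycle homology region (CHR, TTTGAA) that recruits the DREAM repressor and activators of G2 genes. Searched on both strands in the 250 bases before the RefSeq start (GRCh38.p14), the CHR was present in 13 of 23 promoters of the list, 56.5%, and in 10.7% of all 14896 promoters. CCAAT was present in 20 of the 23, 87%, and in 34.5% of all. The 3 promoters below were picked after the values were seen from those that hold 2 CHR matches (read on either strand), in capitals, outside annotated exons. That of MKI67 also held 2 such matches and is not shown. They lie at chr1:43358731-43358954 (plus strand), chr14:55191679-55191835 (minus strand) and chr17:40417951-40418146 (minus strand).
CDC20: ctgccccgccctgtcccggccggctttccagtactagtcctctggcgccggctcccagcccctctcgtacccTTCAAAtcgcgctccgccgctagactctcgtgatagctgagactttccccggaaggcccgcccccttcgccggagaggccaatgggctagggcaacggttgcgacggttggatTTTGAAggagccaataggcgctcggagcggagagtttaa
DLGAP5: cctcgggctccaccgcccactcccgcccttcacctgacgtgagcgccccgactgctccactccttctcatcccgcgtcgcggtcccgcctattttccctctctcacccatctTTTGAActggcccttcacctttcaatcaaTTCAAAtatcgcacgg
TOP2A: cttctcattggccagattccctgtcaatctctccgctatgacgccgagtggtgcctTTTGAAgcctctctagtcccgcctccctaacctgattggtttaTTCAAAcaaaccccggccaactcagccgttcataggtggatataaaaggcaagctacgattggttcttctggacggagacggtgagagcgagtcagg
CDC20, the activator of the anaphase-promoting complex, stood at 69.8 CPM in both rescue libraries and at 176 and 179 CPM in the pair. TOP2A, which untangles chromosomes, stood at 369 and 353 CPM against 780 and 779 CPM. All 3 genes fell in the labelled test (edgeR adjusted p = 0.00834 for CDC20, 0.0284 for DLGAP5 and 0.0182 for TOP2A).

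S phase genes lay lower by less. Of 29 members 27 had a ratio below 0, beside 8588 of all 15435 genes. Called lower were 5, 17.2% beside 8.21% of all genes, and the median was -0.62. In the labelled test 14 of 29 fell, beside 13.5% of all genes, and 0 rose. CCNE1, the gene of cyclin E1, stood at 17.4 and 17.2 CPM after rescue, at 64.1 and 63.8 CPM in the pair and at 116 and 112 CPM in the response-like pair. RRM2, the regulated subunit of ribonucleotide reductase, stood at 111 and 106 CPM against 364 and 359 CPM, 3.33-fold lower. PCNA, the sliding clamp of replication and also a p53 target, stood higher, at 203 and 192 CPM against 140 and 143 CPM. The E2F site, searched as TTTCCCGC, TTTGGCGC and TTTCGCGC on both strands, was in 13 of 25 promoters of the list, 52%, and in 3.14% of all.

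Histone genes of the HIST clusters lay lower as a family. Of 44 at 1 CPM or more 31 were called lower, 70.5% beside 8.21% of all genes, and 2 higher, with a median of -1.49. The 70 rows summed to 3272 and 3058 CPM after rescue against 7625 and 7656 CPM in the pair. In the response-like pair they summed to 4857 and 5043 CPM. In the labelled test 15 of 55 fell and 6 rose, beside 13.5% and 9.61% of all genes. HIST1H4A stood at 18.1 and 16.2 CPM after rescue against 88.7 and 91.4 CPM. HIST1H2BE stood at 39.1 and 37.8 CPM against 6.4 and 5.5 CPM, in the other direction. Replication histone transcripts end in a stem-loop rather than a poly(A) tail, and these libraries were of total RNA with ribosomal RNA removed. The genes have near-identical copies, so single values are uncertain.

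Among chaperones, mostly cytosolic but with the mitochondrial pair HSPD1 and HSPE1 in the list, HSPA8 had the lowest ratio. HSPA8, the constitutive HSP70 that folds new proteins and uncoats clathrin, lies on chromosome 11 from 123057489 to 123063230. It stood at 218 and 213 CPM after rescue, at 1465 and 1478 CPM in the baseline-like pair and at 1271 and 1250 CPM in the response-like pair. The level was 6.84-fold lower than in the baseline-like pair (means of 215 against 1472 CPM, 2 libraries each). The SD was 3.52 CPM over the rescue libraries and 8.54 CPM over the pair. The pair was picked for matching profiles, so its SD is not a spread of replicates. HSPA8 fell by 2.66 in the labelled test (log2, SE 0.14, edgeR adjusted p = 0.00834). Of 35 chaperones at 1 CPM or more 12 were called lower, 34.3% beside 8.21% of all genes and with HSPD1 and HSPE1 among them, and 2 higher, with a median of -0.74; under upper quartile scaling the calls were 6 lower and 2 higher. HSPD1, the mitochondrial chaperonin whose span overlaps that of HSPE1, stood at 249 and 234 CPM against 593 and 600 CPM. CCT2, a subunit of the cytosolic chaperonin, stood at 85.3 and 84 CPM against 199 and 201 CPM, and the cochaperone CHORDC1 at 35.5 and 38.3 CPM against 102 CPM in both libraries of the pair. Stress-inducible members differed among themselves. HSPH1, of the HSP110 family, was called lower, at 112 and 111 CPM after rescue, 226 and 235 CPM in the baseline-like pair and 555 and 553 CPM in the response-like pair. HSPB8, a small heat shock protein, was called higher and stood at 78 and 74.7 CPM after rescue, 34.5 and 35.2 CPM in the baseline-like pair and 192 and 193 CPM in the response-like pair.

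HSPA1A, the inducible HSP70, stood at 156 and 150 CPM after rescue and at 226 and 232 CPM in the pair, under the fold threshold, and shares reads with the near-identical HSPA1B. The heat shock element GAANNTTC was found on either strand in 12 of 32 chaperone promoters, 37.5%, and in 4.78% of all. Of 23 chaperones and quality control factors of the endoplasmic reticulum 0 were called in either direction, with a median of -0.25. Of all genes 16.0% were called higher and 8.21% lower. In the labelled test 5 of the 23 fell, beside 13.5% of all genes.

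Other lists of basic metabolism and RNA handling lay lower by small ratios. Among 23 cholesterol genes at 1 CPM or more 5 were called lower, 21.7% beside 8.21% of all genes, and 0 higher. SQLE, the squalene epoxidase gene, stood at 61 and 58.5 CPM after rescue and at 153 and 154 CPM in the pair. In the labelled test 9 of 24 cholesterol genes fell, beside 13.5% of all genes. Of 23 cleavage and polyadenylation factors 3 were called lower, CPSF2, CPSF3 and NUDT21, a share of 13% that is not far from the 8.21% of all genes. However, 19 of the 23 had a ratio below 0. In the labelled test 9 of these 23 fell, beside 13.5% of all genes, and 0 rose. CPSF2 stood at 26.6 and 27 CPM against 68.8 and 70.5 CPM. Of 30 P-body and decay genes 3 were called lower, 10% beside 8.21% of all genes. Called higher were 2, 6.67% beside 16.0% of all genes, and 24 had a ratio below 0. In the labelled test 10 of the 30 fell and 2 rose, beside 13.5% and 9.61% of all genes. DCP1A, whose row also takes any transgene reads that match it and overlaps CACNA1D, stood at 460 and 437 CPM after rescue, at 942 and 936 CPM in the baseline-like pair and at 886 and 864 CPM in the response-like pair, and fell in the labelled test (edgeR adjusted p = 0.0094). EDC4, the scaffold of the decapping complex, stood at 20.9 and 20.8 CPM against 46.7 CPM in both. TNRC6C, a partner of Argonaute, stood higher, at 102 and 103 CPM against 41.3 and 42.7 CPM. Under upper quartile scaling 0 of these 30 genes were lower, and 1 of the 23 cleavage factors was lower.

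**Figure D4:**
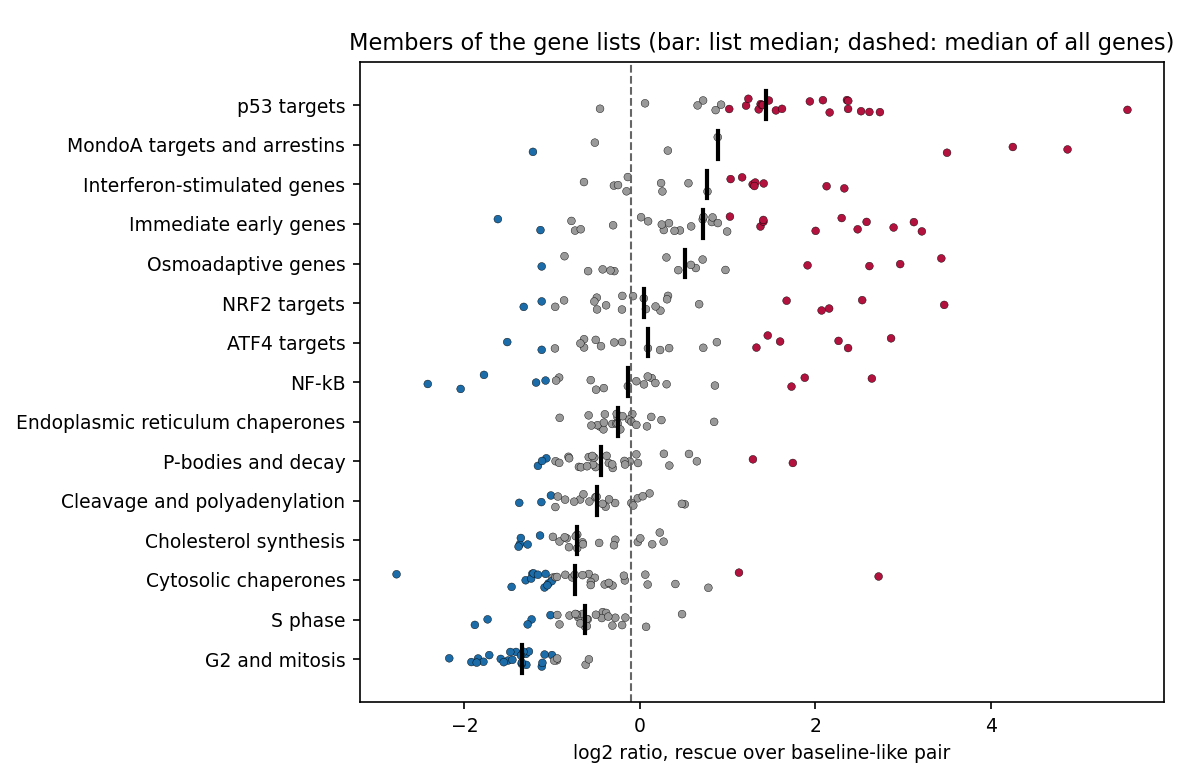
Each point is a list member with a mean of at least 1 CPM, placed by its log2 ratio of rescue over the baseline-like pair; red and blue mark members called higher and lower, black bars the list medians and the dashed line the median of all genes (-0.10). The medians run from -1.35 for G2 and mitosis to 1.44 for p53 targets.

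Of 16 osmoadaptive genes 12 had a log2 ratio of rescue over isotonic 1 nearer to 0 than that of the response-like pair over hypertonic 2. SLC38A2, NFAT5 and FOS helped to choose the pair, so their values and this count are a description only. The 2 pairs differ in osmotic response by that choice, and the share of all genes nearer to 0 was not computed. The count therefore does not measure a return to baseline. In the list 4 genes were called higher than the baseline-like pair, 25% beside 16.0% of all genes, and 1 lower, 6.25% beside 8.21%. The median log2 ratio was 0.50 for rescue over isotonic 1 and 1.71 for the response-like pair over hypertonic 2, a pair of ratios that share no library. Without SLC38A2 and NFAT5 these medians were 0.62 and 1.64, and 10 of 14 genes lay nearer to 0. Over all genes the medians of the same ratios were -0.1 and -0.04. SLC38A2 stood at 480 and 465 CPM after rescue, 1.35-fold above the baseline-like pair. The inositol transporter SLC5A3, whose row overlaps MRPS6, stood at 269 and 277 CPM against 170 and 181 CPM. The taurine transporter SLC6A6 stood at 162 and 158 CPM against 109 and 104 CPM, and AKR1B1, the aldose reductase that makes sorbitol, at 114 and 110 CPM against 67.5 and 68.7 CPM. These 4 transcripts lay above the pair in both rescue libraries by less than 2-fold. NFAT5 stood below it, at 103 and 114 CPM against 160 and 168 CPM.

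A few genes of the list were as high after rescue as in the response-like pair, or higher. SGK1, a kinase that regulates ion transport, stood at 103 and 91.7 CPM after rescue, at 14.8 and 16.8 CPM in the baseline-like pair and at 95.6 and 88.6 CPM in the response-like pair. AQP3, a water and glycerol channel, stood at 19.1 and 18.8 CPM after rescue, 1.6 and 1.72 CPM in the baseline-like pair and 12 CPM in both response-like libraries. No osmoadaptive gene rose in the labelled test and 1 of 16 fell (SLC7A11, named after its value was seen), beside 9.61% and 13.5% of all genes.

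Immediate early genes differed among themselves. Their median log2 ratio was 0.79 for rescue over isotonic 1 and 2.46 for the response-like pair over hypertonic 2, or 0.71 and 2.37 without FOS. FOS helped to choose the pairs, so the median of the response-like pair is in part set by that choice. Of 31 members 11 were called higher than the baseline-like pair, 35.5% beside 16.0% of all genes, and 2 lower, 6.45% beside 8.21%. Among the NR4A nuclear receptors, NR4A2 stood at 38.7 and 34.8 CPM after rescue, at 4.41 and 3.85 CPM in the baseline-like pair and at 34.1 and 32.8 CPM in the response-like pair. NR4A1 stood at 50 and 42.7 CPM against 8.04 and 7.25 CPM, 6.07-fold higher. SPRY2, a feedback inhibitor of receptor signalling, stood at 27.3 and 24.4 CPM against 3.36 and 3.42 CPM, though at 127 and 125 CPM in the response-like pair. FOS stood at 8.99 and 8.04 CPM, 2.64-fold above the baseline-like pair. EGR1, a zinc finger early gene, lay below the baseline, at 13.8 and 14 CPM after rescue, 29.7 and 31.6 CPM in the baseline-like pair and 221 and 209 CPM in the response-like pair. MYC, which promotes growth, stood at 42.2 and 39.2 CPM against 127 and 123 CPM in the baseline-like pair and 199 and 186 CPM in the response-like pair; it fell in the labelled test (edgeR adjusted p = 0.0201).

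To separate what stayed changed from what was newly changed without a shared control, rescue was set over isotonic 1 and the response-like pair over hypertonic 2, with the same 2-fold rule. Over isotonic 1, 2461 genes were higher in rescue (15.9%) and 1271 lower (8.23%). Over hypertonic 2, 1524 genes were higher in the response-like pair (9.87%) and 1529 lower (9.91%). Of the 2461 higher genes 806, or 32.8%, were also higher in the response-like pair, 1379, or 56%, were not called there, and 276, or 11.2%, were lower there. Of the 1271 lower genes 111, or 8.73%, were also lower in the response-like pair, 1131, or 89%, were not called there, and 29, or 2.28%, were higher there. From the other side, 689 of the 1524 genes higher in the response-like pair (45.2%) and 1142 of the 1529 lower ones (74.7%) were not called in rescue. With the baselines swapped these counts were 678 of 1514 and 1178 of 1568. Most genes of any kind were not called in each comparison. Of all genes 15.9% were higher and 8.23% lower in rescue, and 9.87% and 9.91% in the response-like pair. The shares not called, 74.7% and 89% among them, are therefore not read as a return to baseline or as a new change.

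**Figure D5:**
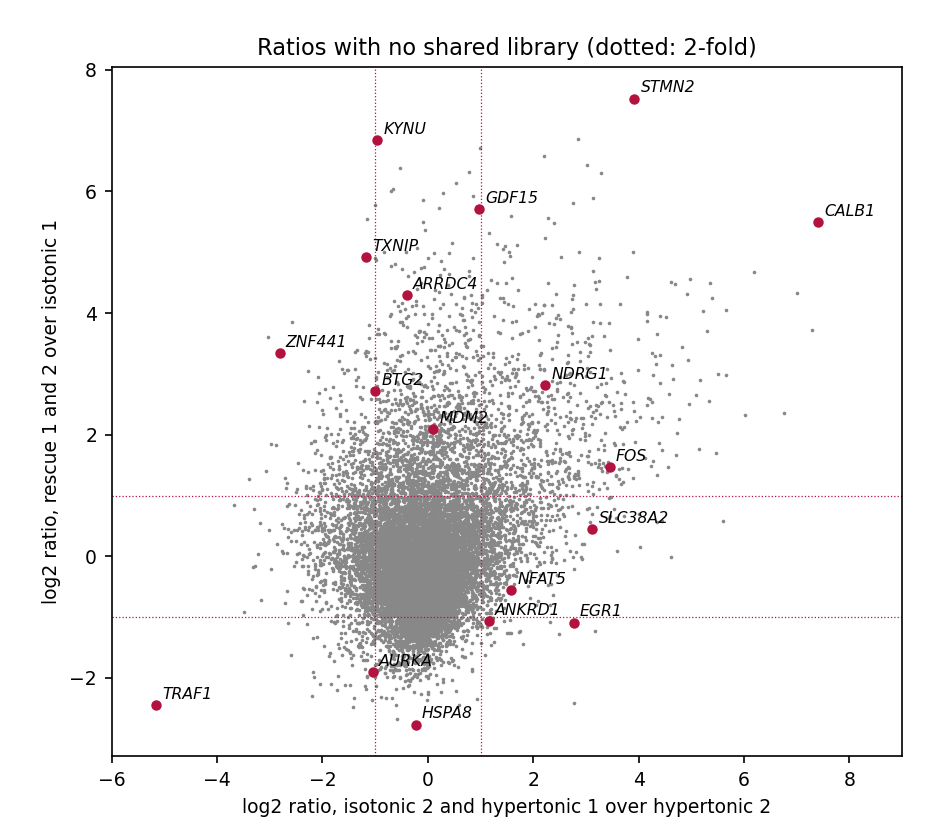
Each point is a gene with a mean of at least 1 CPM; the x axis is the log2 ratio of isotonic 2 and hypertonic 1 over hypertonic 2, the y axis that of the rescue libraries over isotonic 1, and dotted lines mark 2-fold. KYNU, ARRDC4 and MDM2 are high on the y axis and inside 2-fold on the x axis, SLC38A2 and NFAT5 are high on the x axis and inside 2-fold on the y axis, and CALB1 and NDRG1 are high on both.

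Most examples of the classes were chosen by rank after the classes were formed. CALB1 came from the fixed set of named genes, and ZNF441 and ANKRD1 came from gene lists. Among genes high in rescue and also in the response-like pair, NDRG1, a hypoxia and stress gene, was added from the hypoxia list: it stood at 440 and 414 CPM after rescue, 60.4 and 60.1 CPM in the baseline-like pair and 281 and 283 CPM in the response-like pair. STMN2, a neuronal regulator of microtubules, stood at 39.8 and 39.7 CPM after rescue, 0.116 and 0.138 CPM in the baseline-like pair and 3.47 and 3.51 CPM in the response-like pair. SERPINB5, the maspin gene, stood at 24.2 and 21.4 CPM after rescue, 0.0964 and 0.079 CPM in the baseline-like pair and 1.05 and 1.34 CPM in the response-like pair. CALB1, the calcium buffer calbindin, stood at 12 and 13.4 CPM after rescue, 0.183 and 0.227 CPM in the baseline-like pair and 54.4 and 55.9 CPM in the response-like pair. None of these 4 passed the labelled test.

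Other genes were called in rescue and were within 2-fold of hypertonic 2 in the response-like pair. KYNU, the kynureninase of tryptophan breakdown, lies on chromosome 2 from 142877498 to 143055832. It stood at 48.1 and 52 CPM after rescue, at 0.337 and 0.622 CPM in the baseline-like pair (35 and 63 counts) and at 0.275 and 0.268 CPM in the response-like pair. The plain ratio of means was 104-fold and the log2 ratio with 0.1 CPM added was 6.43, and KYNU rose in the labelled test by 7.35 (log2, SE 0.532; edgeR adjusted p = 0.00834). KMO, the preceding enzyme of the pathway, stood at 5.85 and 5.94 CPM against 0.916 and 0.918 CPM, and QPRT, which feeds NAD synthesis, lay lower, at 14.5 and 14.3 CPM against 29.6 and 31.4 CPM. Of 11 kynurenine genes at 1 CPM or more 4 were called higher, 36.4% beside 16.0% of all genes, and 2 lower, 18.2% beside 8.21%, and 4 of the 11 had a mean under 5 CPM. CYP4F2, a fatty acid hydroxylase with close relatives, stood at 14.3 and 14.4 CPM against 0.174 and 0.079 CPM. MS4A4A, a membrane protein of myeloid cells whose row overlaps MS4A4E, stood at 12.3 and 14.5 CPM against 0.116 and 0.079 CPM.

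On the lower side, KIAA1147 stood at 8.06 and 8.34 CPM after rescue, at 52.7 and 50.9 CPM in the baseline-like pair and at 32.9 and 34.6 CPM in the response-like pair, which was itself lower by less than 2-fold. IQGAP3, a scaffold protein of proliferating cells, stood at 27.9 and 26.3 CPM after rescue, 148 and 146 CPM in the baseline-like pair and 93.7 and 97.2 CPM in the response-like pair, again between the others. MEX3A, an RNA-binding protein, stood at 6.24 and 6.68 CPM against 35.4 and 35 CPM, with 52.3 and 53.8 CPM in the response-like pair. HR, a corepressor of nuclear receptors, stood at 10.3 and 9.4 CPM against 51 and 52.2 CPM, with 48.8 and 54 CPM in the response-like pair. These 4 genes fell in the labelled test, with edgeR adjusted p-values between 0.00834 and 0.0177. TRAF1, an adaptor of TNF receptors, was lower in both comparisons: it stood at 16.2 and 16.9 CPM after rescue, 90.5 and 87.4 CPM in the baseline-like pair and 2.4 and 2.29 CPM in the response-like pair, and did not pass the labelled test.

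Genes with opposite ratios in the 2 comparisons were fewer. ZNF441 was low in the response-like pair and high in rescue, at 0.95 and 0.87 CPM and at 69.2 and 71.2 CPM, with 6.84 and 7 CPM in the baseline-like pair. Zinc finger genes with ZNF symbols had 79 of 468 members called higher, 16.9% and so near the share of all genes, and 10 lower, 2.14%; their summed level was 16785 and 16849 CPM after rescue, 14496 and 14520 CPM in the baseline-like pair and 11563 and 11468 CPM in the response-like pair. ANKRD1, a target of the growth regulator YAP, was high in the response-like pair, at 233 and 218 CPM, and low in rescue, at 50.1 and 45.2 CPM against 99.5 and 101 CPM.

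Stress and immune lists were mixed, and their counts are set beside the 16.0% higher and 8.21% lower of all genes. Among ATF4 pathway genes, the 10 regulators had 6 members higher and 0 lower, while the 11 genes of amino acid supply had 0 higher and 2 lower. ATF3, a stress-induced repressor, stood at 98.4 and 95.9 CPM after rescue, 13.1 and 13.4 CPM in the baseline-like pair and 71.4 and 67.5 CPM in the response-like pair. SLC7A1, a carrier of cationic amino acids, stood at 67 and 67.2 CPM against 193 and 190 CPM and fell in the labelled test (edgeR adjusted p = 0.00834). Of 17 interferon-stimulated genes at 1 CPM or more 8 were called higher (47.1%) and 0 lower, and 6 of the 17 had a mean under 5 CPM, a range where 48% of all genes were called higher. IRF1, an interferon regulatory factor, stood at 33.5 and 31.9 CPM against 13.6 and 13.1 CPM. The NF-kB list had 3 of 21 members higher (14.3%) and 5 lower (23.8%), or 4 higher and 3 lower under upper quartile scaling. Its feedback inhibitor TNFAIP3 stood at 80.2 and 75 CPM after rescue, 23.7 and 23 CPM in the baseline-like pair and 145 and 139 CPM in the response-like pair, while LIF, a cytokine, stood at 30.8 and 31.6 CPM against 107 CPM in both baseline-like libraries. NRF2 targets had 5 of 23 higher (21.7%) and 2 lower (8.7%), and hypoxia and glycolysis genes 5 of 28 higher (17.9%) and 0 lower, so the share higher of the second list and the share lower of the first were near those of all genes. YAP targets had 2 of 14 higher (14.3%) and 3 lower (21.4%), and 4 higher and 1 lower under upper quartile scaling.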

How the data were processed

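Counts per gene in 6 total RNA libraries were analysed. The authors deposited raw counts, whole numbers with no normalization, 1 table per library; they used TopHat2 with Bowtie2, bcl2fastq and bedtools, per the submitters' processing notes. Tool versions, gene annotation and strand handling: not given in the sources used here. Therefore overlapping and antisense genes may share reads. Ribosomal RNA was removed, per the labels' protocols.

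The tables held 19940 rows and 19907 names, of which 19874 had 1 location in GENCODE release 29 (GRCh38), the source of gene coordinates; 33 names on more than 1 row were not named. Totals ranged from 90196278 to 105991428, where 3 counts are 0.0247 to 0.0375 CPM; counting limits precision for weak genes. CPM used TMM factors of all 6 libraries. Log2 ratios were of mean CPM plus 0.1, and folds of plain mean CPM, for genes averaging 1 CPM or more. edgeR 4.0.16 (filterByExpr, TMM, quasi-likelihood, robust) tested rescue against isotonic as labelled with 3 residual degrees of freedom, after a check on simulated data; DESeq2 1.42.0 and limma 3.58.1 were alternatives.

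Named genes were the 10 largest ratios each way with a mean of at least 5 CPM over the 4 libraries, up to 4 members per list in its main direction and 2 in the other, and a fixed set; others were added after values were seen. The members and lists were chosen with earlier results of these data known. Promoters came from RefSeq.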

Additional observations from a re-analysis of the deposited data

How the results depend on the processing

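Leaving out 1 of the 4 libraries kept the counts of genes called against the baseline-like pair between 2454 and 2482 higher and between 1239 and 1306 lower; without the library labelled hypertonic 2 they were 2461 and 1271. Isotonic 1 and hypertonic 2 were picked for their matching profiles, so leaving out either could move these counts only a little. At 4-fold 1003 genes were higher and 43 lower, and at 1.5-fold 3705 were lower. Among genes averaging 5 CPM or more 1346 were higher, and without a filter on low values 4044 were higher. With upper quartile scaling 698 were lower and with scaling by totals 618, and the NF-kB median turned to 0.04. For rescue against isotonic as labelled, leaving out 1 library gave between 0 and 1541 rises and between 0 and 1920 falls, and leaving out isotonic 2 and hypertonic 2, or isotonic 1 and hypertonic 1, gave 7476 or 7496 rises and 7115 or 7402 falls. DESeq2 called 3280 and 3761, limma voom 2378 and 2518, and edgeR with upper quartile scaling 1404 falls.

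With a replicate block edgeR called 0 rises and 0 falls, with 4896 genes at an unadjusted p under 0.05; no other tool was run with the block. Deviations of same-numbered libraries correlated at -0.0314 between isotonic and rescue, 0.0523 between hypertonic and rescue and -0.978 between hypertonic and isotonic. The deviations in the isotonic and hypertonic groups are mostly the difference between baseline-like and response-like libraries (SD 0.93 and 0.922). The check therefore cannot show whether a number marks a shared culture or day. The blocked count says nothing about effect size. At 1.5-fold the split of rescue over isotonic 1 held 1367 genes higher in both states, 840 higher in rescue and lower in the response-like pair, and 3695 lower in rescue (665 lower in both, 2819 not called in the response-like pair and 211 higher there). The response-like pair then had 2640 higher genes, 1062 of them not called in rescue, and 3353 lower, 1848 of them not called. Of the named genes, no called ratio against the pair and no call of the labelled test changed direction under the alternatives run. The level bins from isotonic 2 and hypertonic 1 and the medians without SLC38A2, NFAT5 and FOS were chosen after seeing the data.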
